A study of Mus musculus with 12 samples.

Results

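The potassium channel genes were examined in 4 tissues of p53-/-, p66-/- and wild type (WT) mice. They were taken as every gene whose symbol in the probe table of the array starts with Kcn and ends in a family letter and a number, which gave 80 genes of 18193 measured. Transcript levels came from 12 Affymetrix expression arrays, 1 for each of heart, thymus, lung and liver from p53-/-, p66-/- and WT mice. The p53-/- mice lacked the tumour suppressor p53, the p66-/- mice lacked p66Shc, an isoform of the Shc1 adaptor linked to oxidative stress, and the WT mice carried neither deletion. All mice were 2 months old and of the Sv/129 strain, and for heart, thymus and liver the RNA of 4 mice was pooled for each array, so that differences between single mice were not measured there. The number of mice behind a lung array is not given in the sources used here. Every value is a log2 signal, and a log2 difference of 1 is 2-fold.

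A potassium channel lets potassium leave or enter a cell through a pore built from several subunits, and so sets the resting voltage and ends each electrical signal. Voltage-gated pores open when the membrane is depolarized, calcium-activated pores when calcium rises, inward rectifiers and two-pore domain channels carry current near rest, and silent subunits join other voltage-gated subunits without forming a working pore alone. Accessory subunits such as the KCNE, KChIP and Kv beta proteins change how a pore opens and reaches the membrane. In heart these currents end the action potential, in T lymphocytes they hold the voltage that drives calcium entry, and in epithelia they support the transport of salt and water. Of the 80 genes, 57 code for pore subunits, 9 for silent subunits and 14 for accessory subunits.

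Each gene was read by the probe set with the highest mean over the 12 arrays. The 80 genes had 158 probe sets, and 45 of them had more than 1. Another probe set of a gene can read another end or form of its transcript, and for the genes discussed below its value is given where it changed the pattern.

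The labelled tissues were borne out by their markers, while several arrays carried transcripts of other tissues. All 12 of 12 cardiomyocyte markers were higher in heart, 9 of 11 thymocyte markers in thymus, 10 of 10 lung epithelium markers in lung and 11 of 11 hepatocyte markers in liver. On the WT thymus array, 15 markers of salivary gland had a mean signal of 13.6, against 5.38 on the p53-/- and 5.40 on the p66-/- thymus array, and on the WT heart array they stood at 8.26, against 5.73 on the p53-/- and 5.99 on the p66-/- heart array. The p53-/- thymus array carried skeletal muscle markers at 9.46, against 6.38 on the p66-/- and 6.50 on the WT array, while its cardiomyocyte markers stood at 6.44, against 8.60 on the p66-/- and 8.65 on the WT array. Hepatocyte markers stood at 6.93 in p53-/-, 9.40 in p66-/- and 10.3 in WT lung. The probe sets of Shc1 are not known to lie in the deleted part and check no label, and that of p53 was not analysed here. Nothing in the labels says that the pools of a genotype came from different mice, so p-values measure only the spread between these arrays.

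Promoters of genes that led a tissue are printed to show the start of the transcripts discussed below. RefSeq promoter windows of 300 bases (250 before the start, 50 after it, build GRCm38.p6) were found for 61 of the 80 genes, and 6 of the 13 genes higher in heart were among them. Kcnip2 led in heart among these 6 and lies at chr19:45816014-45816313 on the minus strand, Kcnn4 led in thymus at chr7:24370013-24370312 on the plus strand, and Kcne2 led in lung at chr16:92292139-92292438 on the plus strand, as the first of its 2 windows. Capitals mark the GC box GGGCGG on either strand in Kcnip2 and Kcne2, and the Runx core TGTGGT on either strand in Kcnn4. All are written along the strand of the gene.
Kcnip2: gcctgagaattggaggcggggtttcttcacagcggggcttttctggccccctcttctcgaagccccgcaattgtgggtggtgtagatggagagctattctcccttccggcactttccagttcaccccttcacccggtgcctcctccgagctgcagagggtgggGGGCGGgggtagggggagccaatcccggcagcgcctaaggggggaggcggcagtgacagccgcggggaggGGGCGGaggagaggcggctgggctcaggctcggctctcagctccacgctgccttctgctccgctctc
Kcnn4: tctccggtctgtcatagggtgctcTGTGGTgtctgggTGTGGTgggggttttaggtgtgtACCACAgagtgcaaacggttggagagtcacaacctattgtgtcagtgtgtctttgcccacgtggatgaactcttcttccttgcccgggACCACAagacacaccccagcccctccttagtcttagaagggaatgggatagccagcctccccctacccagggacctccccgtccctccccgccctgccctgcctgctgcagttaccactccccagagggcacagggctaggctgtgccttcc
Kcne2: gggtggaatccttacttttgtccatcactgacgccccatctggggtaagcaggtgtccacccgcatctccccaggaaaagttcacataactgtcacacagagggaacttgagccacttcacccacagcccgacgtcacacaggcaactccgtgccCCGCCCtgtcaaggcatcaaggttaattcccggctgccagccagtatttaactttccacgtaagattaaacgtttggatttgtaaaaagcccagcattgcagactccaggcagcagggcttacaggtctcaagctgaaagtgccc
The GC box occurred 2 times in the Kcnip2 window and 1 time in that of Kcne2. It stood in 47.7% of the 86 windows of the potassium channel genes and in 35.7% of 32851 windows of all genes, and the Kcnn4 window held it too. The Runx core, the letters bound by the Runx factors known from T cell development, occurred 4 times in the Kcnn4 window, and was found in 12.8% of the windows of potassium channel genes and 16.8% of all windows. Of the other motifs searched on both strands, CCAAT stood in 31.4% of the windows of potassium channel genes and 37.4% of all windows, TATAAA in 5.81% and 13.6%, and GATAA in 16.3% and 25.4%. These motifs were picked with the sequences in view, and a match of letters is not a measured binding site.

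Most potassium channel genes changed little between tissues, and a minority changed strongly. The highest and the lowest tissue mean lay within 1 log2 unit for 57 of 80 genes (71.2%), against 59.6% of all genes. The median gap between these means was 0.60 for potassium channel genes and 0.78 for all genes. Only 19 of 80 had a mean signal at or above the median of all genes, so most were read at low signal, where an array understates a difference. The narrowest gap was 0.15 in Kcnk7 and the widest 4.43 in Kcnk3. By family, the median gap was 1.32 for the 4 calcium-activated SK and IK genes, 0.88 for the 15 inward rectifiers, 0.51 for the 12 two-pore domain genes and 0.36 for the 9 silent subunits.

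Each tissue was set against the mean of the other 3 tissues to ask which channel transcripts stood higher or lower there. A gene was called at a limma adjusted p under 0.05 over all 18193 genes and a 2-fold difference, with the 3 arrays of a tissue as its replicates. Of the 80 genes, 20 were called in at least 1 tissue, 15 pore, 2 silent and 3 accessory. The share of all genes called in at least 1 tissue was not counted, so these 20 are not set against a background. Shares of all genes are given below for each tissue and direction. In these whole tissues, fewer cells of a type and less RNA per cell cannot be told apart.

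**Figure D1:**
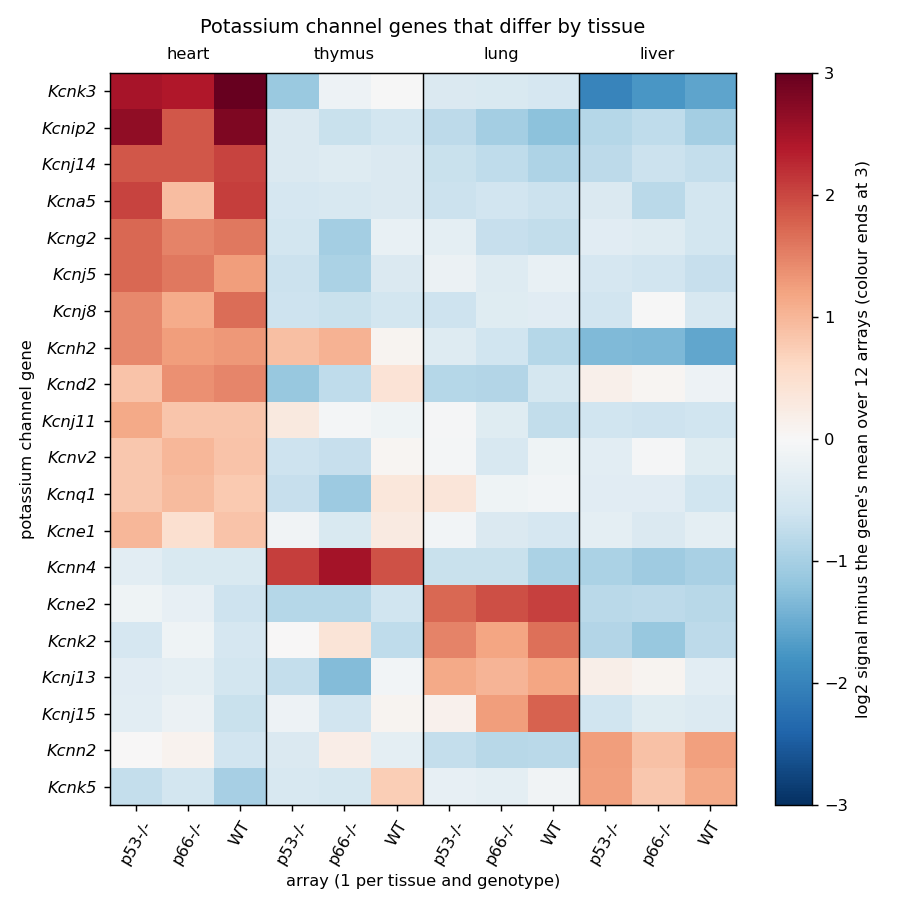
Colour gives the log2 signal of each of the 20 called potassium channel genes (rows) minus its own mean over the 12 arrays (columns, by tissue and genotype). The upper 13 genes are darkest red in the 3 heart arrays, Kcnn4 in thymus, Kcne2 to Kcnj15 in lung, and Kcnn2 and Kcnk5 in liver.

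Heart held the largest group. Of the 80 genes, 13 (16.2%) were higher in heart than in the other tissues, where 5.04% of all genes were called higher, and 1 (1.25%) was lower, where 9.85% of all genes were. The median difference from the other tissues was 0.26 for potassium channel genes and 0.07 for all genes. In 21 genes (26.2%) all 3 heart arrays lay above the other 9 arrays, as they did for 8.43% of all genes. The 13 genes came from 9 families: 4 inward rectifiers, 2 silent subunits, and 1 gene each of the two-pore domain, Kv1, Kv4, EAG and ERG, KCNQ, KChIP and KCNE families.

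Kcnk3 codes for TASK-1, a two-pore domain channel of background current. It stood at 10.37, 10.29 and 10.99 on the p53-/-, p66-/- and WT heart arrays. In the same genotype order it read 6.78, 7.73 and 7.87 for thymus, 7.45, 7.43 and 7.39 for lung, and 5.92, 6.14 and 6.30 for liver, and all later triplets keep this order. Heart and liver each stood clear of the other tissues, while the thymus and lung values overlapped. The heart mean of 10.55 ± 0.38 (SD, n = 3) exceeded the mean of the other tissues by 3.55 ± 0.19 (SE, limma adjusted p = 4.17e-07). Kcnip2, the KChIP2 subunit that carries Kv4 channels to the membrane and shapes the transient outward current of heart, stood at 10.03, 9.24 and 10.18 in heart, and between 6.16 and 6.96 on the other 9 arrays. Its difference of 3.25 ± 0.18 (limma adjusted p = 5.58e-07) was far wider than the spread within heart (SD 0.50). A second Kcnip2 probe set with the same pattern read 7.83, 7.36 and 8.36 in heart, against 4.13 to 4.63 on the other 9 arrays, whereas the other one read 5.89, 5.81 and 5.29 in heart and 4.88 to 5.81 elsewhere.

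The Kv4 pore gene Kcnd2, whose protein KChIP2 binds, was higher in heart by 1.63 ± 0.24 (limma adjusted p = 4.15e-04). It stood at 7.03, 7.55 and 7.65 in heart, and the highest of the other 9 arrays was the WT thymus array at 6.60. Another Kcnd2 probe set parted the tissues more sharply, at 7.58, 7.46 and 8.13 in heart and 4.02 to 4.53 elsewhere, a difference of 3.53 ± 0.13, and yet another gave 2.54 ± 0.22. The last and dimmest ran the other way without passing the threshold, at 4.11, 3.92 and 4.23 in heart and 4.22 to 4.49 elsewhere (-0.25 ± 0.11, limma adjusted p = 0.0938 over all probe sets). Kcnd3, the other Kv4 gene of ventricle, had 6.53, 6.77 and 6.53 in heart against 5.45 to 6.58 on the other arrays by the probe set with the highest mean, and was not called (0.40 ± 0.21, limma adjusted p = 0.149). By a dimmer probe set it stood at 6.54, 6.35 and 6.47 in heart and 5.02 to 5.63 elsewhere, a difference of 1.21 ± 0.11 that passed the threshold (limma adjusted p = 2.01e-05 over all probe sets).

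The delayed rectifier genes followed. Kcna5, which codes for Kv1.5, stood at 6.76 and 6.79 on the p53-/- and WT heart arrays but at 5.65 on the p66-/- heart array, and between 3.91 and 4.30 elsewhere (difference 2.24 ± 0.19, limma adjusted p = 1.21e-05). Kcnh2, the ERG channel of the rapid delayed rectifier, had 9.25, 9.08 and 9.12 in heart. Thymus followed at 8.72, 8.86 and 7.91, lung at 7.43, 7.23 and 6.96, and liver at 6.48, 6.47 and 6.27. No 2 tissues overlapped in Kcnh2. Heart exceeded the other tissues by 1.78 ± 0.15 (limma adjusted p = 1.21e-05). Kcnq1, the pore of the slow delayed rectifier, stood at 9.16, 9.31 and 9.14 in heart, and the next values were 8.72 on the p53-/- lung array and 8.70 on the WT thymus array (difference 1.14 ± 0.25, limma adjusted p = 0.00523). Without the p66-/- heart array Kcnq1 was no longer called (0.96, limma adjusted p = 0.0541). Its partner Kcne1 had 7.31, 6.79 and 7.16 in heart against 5.81 to 6.57 elsewhere, a difference of 1.04 ± 0.14. That difference fell below 2-fold, to between 0.87 and 0.99, when the arrays were rescaled in any of 3 ways. A dimmer Kcne1 probe set gave 2.31 ± 0.21.

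Inward rectifiers made up 4 of the 13 genes. Kcnj14, which codes for Kir2.4, had 6.98, 6.98 and 7.14 in heart against 4.20 to 4.72 elsewhere, a difference of 2.55 ± 0.11 (limma adjusted p = 1.27e-07). Kcnj8 and Kcnj11 code for Kir6.1 and Kir6.2, the pores of channels closed by ATP. Kcnj8 stood at 9.17, 8.84 and 9.40 in heart against 7.05 to 7.70 elsewhere, and Kcnj11 at 9.79, 9.49 and 9.48 against 7.91 to 8.94. A second Kcnj11 probe set gave 0.90 ± 0.15, below 2-fold. Kcnj5, a subunit of the channel that the vagus nerve opens in atrium, had 7.66, 7.52 and 7.20 in heart against 4.99 to 5.76 elsewhere (2.03 ± 0.14). Its partner Kcnj3 missed the 2-fold threshold by the probe set with the highest mean (0.93 ± 0.17, limma adjusted p = 0.00219), but 2 dimmer probe sets gave differences of 3.24 ± 0.16 and 2.03 ± 0.13, and the last one 0.16 ± 0.12. Of the classical inward rectifier genes of ventricle, Kcnj2 had 4.94, 4.86 and 4.89 in heart against 4.35 to 4.82 elsewhere (0.28 ± 0.11, limma adjusted p = 0.0740). Kcnj12 had 5.57, 5.38 and 5.62 in heart against 4.47 to 5.04, which passed the p threshold but not the 2-fold one (0.72 ± 0.14, limma adjusted p = 0.00232).

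A pair of silent subunit genes belonged to the 13. Kcng2, which codes for Kv6.2, had 8.98, 8.74 and 8.83 in heart against 6.24 to 7.04 elsewhere (2.12 ± 0.16, limma adjusted p = 4.21e-06). Kcnv2, which codes for Kv8.2, had 5.91, 6.11 and 5.97 in heart against 4.42 to 5.16 (1.18 ± 0.17). Kcna4, a pore of the slow transient outward current, stood at 6.65, 7.06 and 6.60 in heart against 5.77 to 6.48, a difference of 0.60 ± 0.16 below 2-fold (limma adjusted p = 0.0146). Kcnk5, a two-pore domain gene, was the 1 gene called lower in heart, at 5.90, 6.06 and 5.62 against 6.09 to 7.83 elsewhere. Its difference of -1.0 ± 0.23 lay on the threshold, and it fell under 2-fold without the WT heart (-0.71), WT thymus (-0.86), p53-/- lung (-0.995), p66-/- lung (-0.987) or p53-/- liver (-0.95) array.

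Other genes of the cardiac action potential were also higher in heart. Of 16 measured genes on a list of calcium, sodium, pacemaker and gap junction genes, 9 were higher in heart and 0 lower, with a median difference of 2.65 against 0.07 for all genes. Among them were the calcium release channel Ryr2 (6.72), the calcium channel pore Cacna1c (3.44) and Abcc9 (2.67), which codes for the sulfonylurea receptor that pairs with Kcnj8 and Kcnj11. Of 15 measured binding partners of potassium channels, 1 was higher and 3 lower in heart. Smooth muscle markers were higher in heart for 4 of 9, endothelial markers for 2 of 8, pericyte markers, of which Abcc9 is one, for 2 of 5, and markers of neurons and glia for 1 of 11, and their part in the heart signals was not tested.

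**Figure D2:**
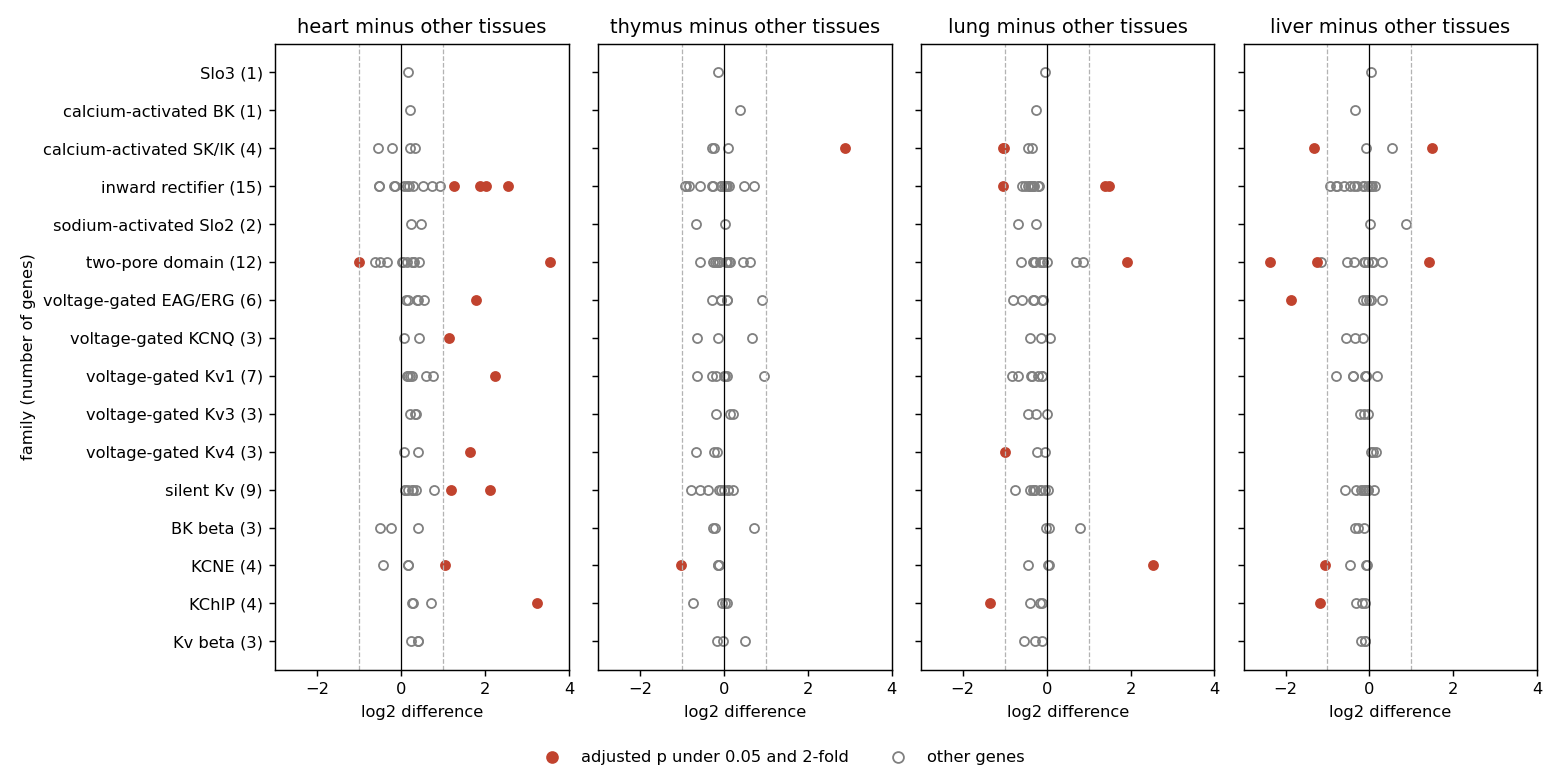
Each point is 1 potassium channel gene, placed by family (rows, with the number of genes) and by its log2 difference between the named tissue and the mean of the other 3. Filled points passed an adjusted p under 0.05 and 2-fold, and dashed lines mark 2-fold. The filled points of heart lie to the right in 9 families, with 1 to the left, whereas those of liver lie mostly to the left.

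In thymus 1 of 80 genes (1.25%) was higher than in the other tissues, where 7.11% of all genes were, and 1 (1.25%) was lower, where 8.56% of all genes were. The gene that was higher, Kcnn4, codes for the calcium-activated channel of T lymphocytes. It stood at 10.80, 11.20 and 10.63 in thymus. Heart had 8.38, 8.26 and 8.25, lung had 8.04, 8.05 and 7.77, and liver had 7.77, 7.66 and 7.73. The thymus arrays stood clear of all others, at 10.88 ± 0.29 (SD, n = 3), a difference of 2.89 ± 0.13 (limma adjusted p = 5.81e-07). A second Kcnn4 probe set gave 3.41 ± 0.13. The gene that was lower, the accessory subunit gene Kcne2, lay at 5.30, 5.32 and 5.57 in thymus, close to the liver values of 5.36, 5.39 and 5.34 (thymus difference -1.03 ± 0.14).

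The voltage-gated channel of T cells, Kcna3, passed the p threshold in thymus but not the 2-fold one. It stood at 7.48, 6.54 and 6.49 in thymus, and the p66-/- heart array, at 6.58, lay within that range (difference 0.95 ± 0.20, limma adjusted p = 0.00295). Kcnab2, a Kv beta subunit, had 7.57, 7.18 and 7.07 in thymus (0.49 ± 0.13), and by another probe set 8.81, 8.22 and 7.39 against 6.14 to 6.75 elsewhere (1.68 ± 0.19). Kcna2, a Kv1 pore best known from neurons, had no clear tissue order by the probe set with the highest mean (0.07 ± 0.19), but a dimmer one read 8.61, 8.74 and 8.02 in thymus against 4.98 to 6.19 elsewhere (2.92 ± 0.13, limma adjusted p = 8.57e-07 over all probe sets). The large calcium-activated channel gene Kcnma1 likewise had 4.93, 5.67 and 5.76 in thymus against 3.78 to 4.42 by 1 of its dimmer probe sets (1.33 ± 0.17), and 7.54, 7.40 and 8.11 by the one with the highest mean (0.39 ± 0.20, limma adjusted p = 0.171).

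Thymus calls moved with single arrays, and most with that of WT thymus. Without the WT thymus array, 2 genes were higher and 6 lower in thymus. Kcnh2 joined Kcnn4 (1.13 ± 0.13), and Kcnd2, Kcng2, Kcnj13, Kcnj5 and Kcnq1 joined Kcne2, at differences between -1.31 and -1.03. Higher calls numbered 3 without p66-/- thymus, 2 without p66-/- heart and 2 without WT liver. Lower calls numbered 2 without WT liver and 0 without p53-/- heart, p53-/- thymus, p66-/- thymus or WT lung. On a list of calcium entry genes of lymphocytes, 3 of 19 were higher in thymus and 1 lower, where 7.11% and 8.56% of all genes were. The median difference was 0.63 against -0.02 for all genes. Nfatc3, a transcription factor switched on by calcium, was higher by 2.55, and Itpr2 and Itpkb by 1.29 and 1.01. Ppp3ca, a catalytic subunit of the phosphatase calcineurin, was lower (-1.19). The list was not particular to thymus, since in lung 4 of the 19 genes were higher and 0 lower. Its median difference in lung was 0.19 against -0.12 for all genes.

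In lung 4 of 80 genes (5%) were higher than in the other tissues and 5 (6.25%) lower, where 9.25% and 3.97% of all genes were. Kcne2, an accessory subunit that also works with KCNQ1 in secretory epithelia, stood at 7.90, 8.10 and 8.21 in lung, against 5.30 to 6.04 on the other 9 arrays. The groups did not overlap, and the difference was 2.54 ± 0.14 (limma adjusted p = 6.14e-07). Kcnk2, the stretch-sensitive channel TREK-1, had 7.90, 7.60 and 8.06 in lung, above the 5.28 to 6.80 of the other arrays, among which the knock-out thymus arrays were highest (lung difference 1.92 ± 0.22).

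The inward rectifier genes Kcnj13 and Kcnj15 completed the group. Kcnj13 had 8.37, 8.25 and 8.41 in lung against 5.93 to 7.41 elsewhere (1.48 ± 0.22). Kcnj15 had 6.71, 7.84 and 8.35 in lung by the probe set with the highest mean, against 5.92 to 6.67 elsewhere (1.40 ± 0.27, limma adjusted p = 0.00253). By another of its probe sets the lung arrays agreed more closely, at 8.77, 9.09 and 8.76, and the difference was 3.67 ± 0.24, with 5.66, 6.64 and 7.40 in thymus and 4.40 to 4.71 in heart and liver. The low p53-/- value of the first probe set was therefore not shared by the second.

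The 5 genes called lower in lung were Kcnip2 (-1.34 ± 0.18), Kcnn2 (-1.05 ± 0.18), Kcnj14 (-1.04 ± 0.11), Kcnn4 (-1.01 ± 0.13) and Kcnd2 (-1.0 ± 0.24). Each is set against a mean that holds the tissue where it was highest, and of these 5 only Kcnn2 had all 3 lung arrays below the other 9. Without WT lung 2 genes were called lower, and without p66-/- thymus or WT liver 3. Among genes known from airway and vascular smooth muscle, Kcnma1 differed by -0.25 ± 0.20, its partner Kcnmb1 by -0.01 ± 0.13 and Kcnab1 by -0.12 ± 0.19. Kcne3 differed by 0.06 ± 0.14, but read only 3.91 to 4.60 on all 12 arrays. Kcnmb2, of the same accessory family as Kcnmb1, was higher by 0.80 ± 0.14, below 2-fold (limma adjusted p = 0.00162). Kcnmb4 of that family stood at 0.06 ± 0.12. Smooth muscle markers were higher in lung for 5 of 9. Of 13 measured genes of epithelial ion transport, 9 were higher in lung and 1 lower, with a median of 2.51 against -0.12 for all genes. They included Aqp5 (4.80), a water channel of alveolar epithelium, and the sodium channel genes Scnn1a (2.57), Scnn1b (2.99) and Scnn1g (3.39). Endothelial markers were higher in lung for 8 of 8, and which lung cells gave the potassium channel signals was not tested.

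**Figure D3:**
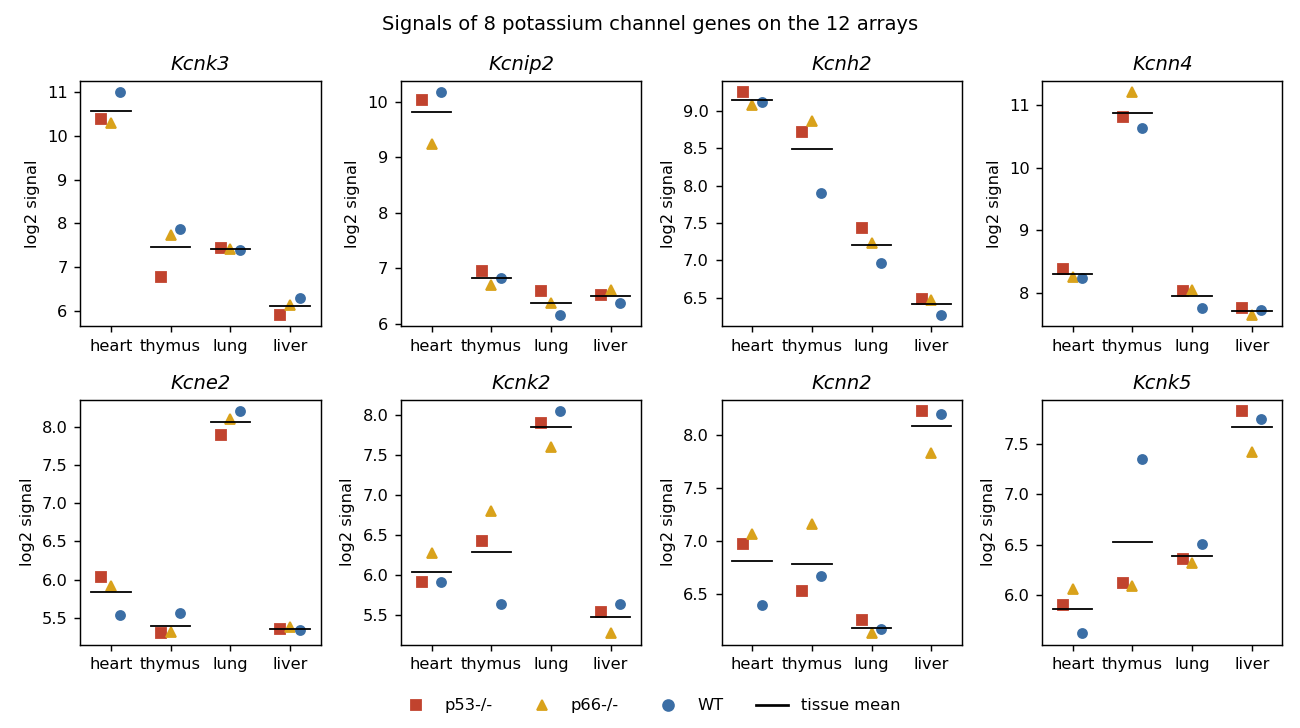
Log2 signal (vertical axis) of 8 potassium channel genes on the 12 arrays, by tissue. Squares are p53-/-, triangles p66-/- and circles WT arrays, and the bar is the tissue mean. Kcnk3 and Kcnip2 stand apart in heart, Kcnn4 in thymus, Kcne2 and Kcnk2 in lung and Kcnn2 in liver, while Kcnk5 has its WT thymus array at 7.35, near the liver arrays.

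In liver 2 of 80 genes (2.5%) were higher than in the other tissues and 6 (7.5%) lower, where 8.33% and 8.75% of all genes were. Kcnn2, a small-conductance calcium-activated channel gene, stood at 8.23, 7.84 and 8.20 in liver. Heart had 6.98, 7.07 and 6.40, thymus had 6.53, 7.16 and 6.67, and lung had 6.26, 6.13 and 6.17. Liver was clear of the other tissues (1.49 ± 0.18, limma adjusted p = 7.9e-05), while the heart and thymus values overlapped. Kcnk5, the acid-sensitive channel TASK-2, had 7.83, 7.42 and 7.75 in liver, and the WT thymus array followed closely at 7.35 (liver difference 1.41 ± 0.23).

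The genes lower in liver were those that led elsewhere: Kcnk3 (-2.36 ± 0.19), Kcnh2 (-1.88 ± 0.15), Kcnn4 (-1.32 ± 0.13), Kcnk2 (-1.24 ± 0.22), Kcnip2 (-1.17 ± 0.18) and Kcne2 (-1.07 ± 0.14). Each is set against a mean that holds the tissue where it was highest. In 4 of them, Kcnk3, Kcnh2, Kcnn4 and Kcnk2, all 3 liver arrays lay below the other 9. That is 5% of the potassium channel genes, against 8.57% of all genes. For 2 of these 4 the gap was very narrow. The highest liver value of Kcnn4 was 7.766, against 7.769 on the WT lung array. That of Kcnk2 was 5.641, against 5.646 on the WT thymus array. Other genes linked with liver were not called. Kcnj10 differed by 0.07 ± 0.14, Kcnj16 by -0.12 ± 0.27 and Kcnk1 by -1.15 ± 0.62 (limma adjusted p = 0.194), while Kcnj8 (-0.47 ± 0.16) and Kcnk6 (-0.54 ± 0.15) were lower by less than 2-fold at limma adjusted p of 0.0379 and 0.0193.

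The comparison of each knock-out with WT asks how channel transcripts change when p53 or p66Shc is missing. Over the 4 tissues together, 0 of 80 potassium channel genes passed a limma adjusted p under 0.05 in p53-/- or in p66-/-, where 0.0055% and 0% of all genes did. At an unadjusted p under 0.05 there were 11 of 80 in p53-/-, 9 higher and 2 lower, against 1873 of 18193 genes, and 3 of 80 in p66-/-, against 717 genes. The median difference was 0.10 in p53-/- and 0.01 in p66-/-, against 0.04 and 0.02 for all genes.

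The lowest p in p53-/- was that of Kcna3, the T cell channel, with 0.71 ± 0.20 (limma adjusted p = 0.304). It stood at 6.48 on the p53-/- heart array against 5.62 in WT heart, at 7.48 against 6.49 in thymus, at 6.09 against 5.18 in lung, and at 5.87 against 5.77 in liver, so that it was above WT in each tissue and by little in liver. Thymocyte markers were likewise higher in p53-/- than in WT on average, at 7.12 against 6.84 in heart, 10.97 against 9.87 in thymus, 7.06 against 6.49 in lung and 7.06 against 6.91 in liver, and their part in the Kcna3 values was not tested. On the p66-/- arrays Kcna3 stood at 6.58 in heart, 6.54 in thymus, 5.58 in lung and 5.86 in liver. Its differences from WT there were 0.96, 0.05, 0.40 and 0.08. The thymocyte markers averaged 7.19 in p66-/- heart, 10.96 in thymus, 7.48 in lung and 7.12 in liver. Of 11 such markers, 6 were 2-fold higher in p53-/- and 7 in p66-/- thymus than in WT thymus. Kcnk16 (0.42 ± 0.12, limma adjusted p = 0.326) and Kcnj4 (0.38 ± 0.12, limma adjusted p = 0.347) came next. In p66-/- the lowest were Kcnc1 (0.32 ± 0.13), Kcnk16 (0.28 ± 0.12) and Kcnt2 (-0.34 ± 0.15), each at a limma adjusted p of 0.99991. Without the WT thymus array 1 gene passed in p53-/-, the inward rectifier gene Kcnj6 (0.50 ± 0.12, limma adjusted p = 0.0402), where 844 genes passed in all. Without the p53-/- lung array as well Kcnj6 did not pass and 56 genes did, and without both knock-out lung arrays 39 did.

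Within a tissue each difference rests on 1 array against 1 array and has no replicate check. In p53-/- heart 0 of 80 genes were 2-fold higher and 0 lower than on the WT array, where 0.115% and 2.08% of all genes were. In p66-/- heart 0 were higher and 1 lower, where 0.181% and 1.67% were. That gene was Kcna5, at 5.65 in p66-/- heart against 6.79 in WT heart (-1.14). Kcnip2 was the next lowest at -0.94, with 9.24 against 10.18. Another Kcnip2 probe set was also below WT heart, but its remaining probe set was above it. In the other direction Kcna2 (0.97) and Kcna3 (0.96) were higher in p66-/- heart by slightly more.

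In thymus 0 of 80 genes were 2-fold higher and 6 (7.5%) lower in p53-/-, where 8.89% and 4.81% of all genes were. In p66-/- thymus 1 (1.25%) was higher and 8 (10%) lower, where 12.7% and 4.78% of all genes were. Both knock-outs are set against the same WT thymus array, the one with the salivary gland markers, so that the 5 genes 2-fold lower in both share that array. Those are Kcnd2, Kcnj16, Kcnk1, Kcnk5 and Kcnq1. Kcnk1, which codes for the two-pore domain channel TWIK-1, stood at 5.74 and 5.68 in p53-/- and p66-/- thymus against 9.75 in WT thymus, the highest of its 12 values (-4.00 and -4.07). A second Kcnk1 probe set had 5.14 and 4.81 against 7.55. Kcnj16, an inward rectifier gene of fluid-secreting epithelia, had 5.78 and 5.52 against 7.17, and by a second probe set 4.09 and 4.25 against 6.10.

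Kcnd2 and Kcnk5 were less uniform across probe sets, and Kcnq1 had a single one. Kcnd2 had 5.05 and 5.43 in p53-/- and p66-/- thymus against 6.60 in WT thymus, but 4.12 and 4.17 against 4.10 by the probe set that parted heart most sharply. Kcnk5 had 6.12 and 6.09 against 7.35, and by a second probe set 5.53 and 5.28 against 5.83. Kcnq1 had 7.66 and 7.27 against 8.70. For all 5 genes both knock-out values lay nearer to each other than to the WT value. Picking genes 2-fold lower in both makes this likely, so it adds no support. Across all genes the knock-out thymus arrays also correlated more closely with each other (r = 0.979) than with WT thymus (0.909 for p53-/-, 0.906 for p66-/-). The part of the salivary gland signal in these differences was not tested.

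**Figure D4:**
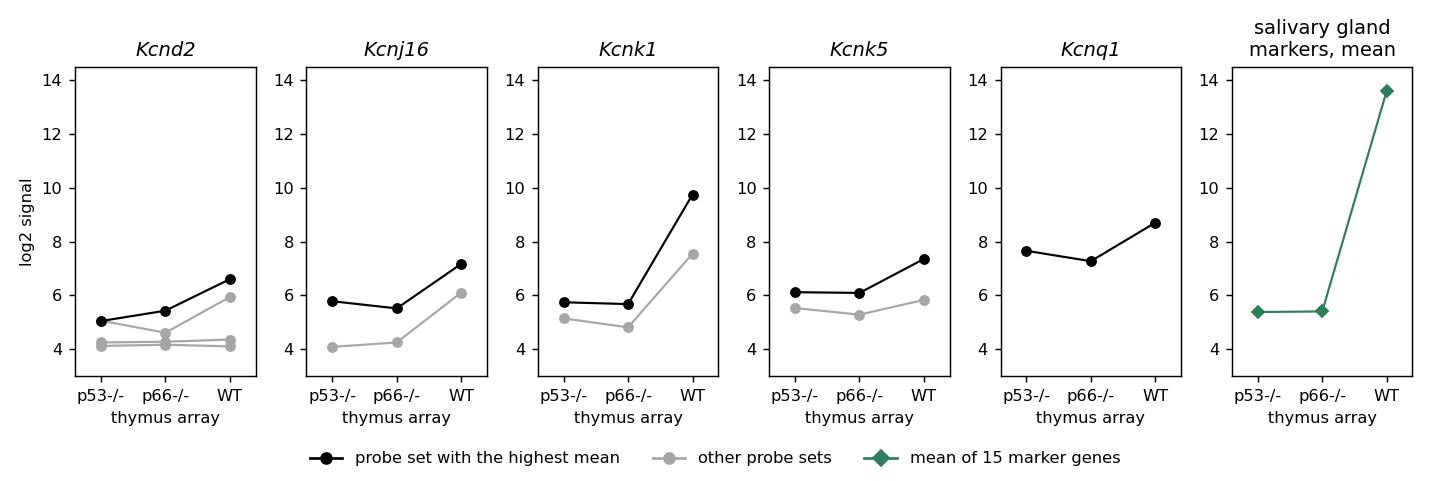
Log2 signal (vertical axis) on the p53-/-, p66-/- and WT thymus arrays of the 5 potassium channel genes 2-fold lower in both knock-outs, with a line per probe set (black, the one with the highest mean), beside the mean of 15 salivary gland markers. Kcnk1 and Kcnj16 are high on the WT array by all their probe sets, Kcnd2 only by some, and the markers stand at 13.6 on the WT array against 5.38 and 5.40.

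The remaining thymus genes were 2-fold different in 1 knock-out. In p53-/- thymus Kcnk3 had 6.78 against 7.87 in WT thymus (-1.09), and its other probe sets differed by -0.57 and -0.51. Cardiomyocyte markers were low on that array (6.44 against 8.65 in WT thymus), and their part in the Kcnk3 value was not tested. Kcnk3 was also below WT in p53-/- heart (-0.62) and liver (-0.38), but not in lung (0.06). In p66-/- thymus Kcnd3 (-1.13), Kcnj13 (-1.21) and the silent subunit gene Kcns1 (-1.21) were lower, and the other probe sets of Kcnd3 differed by 0.18, -0.97 and -0.23. Kcnk2 was the gene 2-fold higher, at 6.80 in p66-/- thymus against 5.65 in WT thymus (1.15), and stood at 6.43 in p53-/- thymus. Lung epithelium markers averaged 9.05 on the p66-/- thymus array, 7.16 on the p53-/- and 8.30 on the WT array, and atrial markers 10.6, 6.04 and 8.81, and their part in the Kcnk2 value was not tested. On the p66-/- thymus array the 18S ribosomal RNA controls read 5.97, against 10.3 on the p53-/- and 10.9 on the WT thymus array. These controls read 9.04 to 9.61 on the heart, 6.07 to 6.61 on the liver and 5.52 to 9.79 on the lung arrays. Their part in the differences between tissues or genotypes was not tested. Of 13 epithelial ion transport genes, 7 were 2-fold lower in p53-/- and 7 in p66-/- thymus than in WT thymus, with medians of -1.65 and -1.52.

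Lung and liver held fewer differences. In p53-/- lung 0 of 80 genes were 2-fold higher and 1 lower, where 0.616% and 4.14% of all genes were. The gene was Kcnj15, at 6.71 in p53-/- lung against 8.35 in WT lung (-1.64), whereas its probe set that was brightest in lung had 8.77 against 8.76. The 18S controls read 9.79 in p53-/- lung against 5.52 in WT lung, and their part in this value was not tested. In p66-/- lung 0 were higher and 0 lower, where 0.341% and 0.313% of all genes were. In p53-/- liver 0 were higher and 0 lower, where 0.0934% and 0.418% were, and likewise 0 and 0 in p66-/- liver, where 0.0824% and 0.302% were.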

How the data were processed

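The values were the deposited log2 signals of 12 arrays, 1 for each of 4 tissues and 3 genotypes, computed by the authors with RMA in Partek 6.5, a method that subtracts background, quantile-normalizes the arrays and summarizes each probe set by median polish. The SD of the probe sets nevertheless lay between 1.72 and 1.99 on different arrays. No raw intensity was used, and the number of arrays limits the precision. Of 45101 probe sets, 64 controls, 932 with several gene symbols and 9160 with none here were left out. The other 34945 gave 18193 genes, each read from the probe set of highest mean. The RefSeq table (GRCm38.p6) matched 80 of 80 potassium channel genes and changed 0 symbols.

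limma 3.58.1 (R 4.3.3) was fitted to all genes and 12 arrays with tissue and genotype as fixed terms, with Benjamini-Hochberg adjustment over all genes. Within a tissue, signals of single arrays were subtracted with no test. All probe sets were fitted in the same way as an alternative. The fits were also run on simulated data with independent normal noise and known log2 changes of 1.5 and 3 in heart or p53-/-. They recovered 89% and 100% of these changes. The simulation held no other tissue differences and no transcripts of other tissues, so it does not check for those. Tables and plots used Python 3.11.15.

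Named genes were the 8 highest and 4 lowest of those called per tissue, genes known in these tissues, genes 2-fold different within a tissue and the 3 of lowest p per knock-out. Other probe sets, Kcnmb2 and Kcnmb4 in lung, Kcna2, Kcna3 and Kcnip2 in p66-/- heart, and Kcnj6 were named after their values were seen. The same holds for Kcna3 in the other p66-/- tissues and for Kcnk3 in p53-/- heart, lung and liver. The genes and gene lists were chosen with earlier results of these data known. Alternatives were other scalings, thresholds, probe set rules, brighter genes alone, no genotype term, an intensity trend and arrays left out.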

Additional observations from a re-analysis of the deposited data

Results flagged for a closer look

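In 3 potassium channel genes both knock-out arrays lay on one side of the WT array in thymus, by 2-fold, and on the other side in another tissue, by more than 0.24, the median residual SD of all genes. This size was set after a rule with the residual SD of each gene had found none. How many of all genes meet it was not counted, so the 3 are not set against a background. Kcnk1 stood at a mean of -4.04 against WT in thymus and 0.51 in heart. Kcnk5 stood at -1.25 in thymus and 0.36 in heart. Kcnq1 stood at -1.24 in thymus and 0.25 in liver. The values outside thymus lay below the residual SD of each gene itself, 1.19 for Kcnk1, 0.41 for Kcnk5 and 0.44 for Kcnq1. The difference between tissues was not tested, since there was 1 array per tissue and genotype, and both knock-outs share the WT array of each tissue. Salivary gland markers were high on the WT thymus array (13.6) and, less so, on the WT heart array (8.26).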

How the results depend on the processing

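Read from the probe set of highest mean or from the mean of all probe sets, every called difference kept its direction under the alternatives run, and 658 of 707 tissue values kept their side of the threshold. The other 49 fell below 2-fold or lost the call, 12 of them for Kcnd2 in lung and 8 for Kcnk5 in heart. Of 10 other probe sets of the genes higher in heart, 9 had the same sign, the exception being one of Kcnd2.

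Leaving out 1 array at a time gave 12 to 14 genes higher and 0 to 1 lower in heart, 1 to 3 higher and 0 to 6 lower in thymus, 4 to 5 higher and 2 to 5 lower in lung, 2 higher and 6 lower in liver, 0 to 1 in p53-/- and 0 in p66-/-. Without the WT thymus array there were 2 higher and 6 lower in thymus and 1 in p53-/-. Leaving out p53-/- lung as well gave 0 lower in heart, 2 higher and 6 lower in thymus. Leaving out both knock-out lungs as well, chosen after seeing the data, gave 0, 2 and 5. The share of all genes called in a tissue was not counted with arrays left out.

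With no minimum difference, 26 genes were higher and 5 lower in heart, 8 and 11 in thymus, 23 lower in lung, and 4 higher and 16 lower in liver. With 3-fold, 0 were lower in heart, 0 lower in thymus, 2 higher and 0 lower in lung, and 0 higher and 2 lower in liver. Brighter genes alone, fewer by construction, gave 7 higher and 0 lower in heart, 0 lower in thymus, 0 higher and 2 lower in lung, and 0 higher in liver. The mean of all probe sets gave 0 lower in heart, 2 higher in thymus, 3 lower in lung and 1 higher in liver. Counting a gene when any of its probe sets passed, chosen after seeing the data, gave 2 lower in heart, 4 higher and 4 lower in thymus and 10 lower in liver. Repeated quantile normalization gave 0 lower in thymus and 3 lower in lung, median centring 3 and cyclic loess 2 lower in lung, and the cause was not tested.

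Within a tissue, 1.5-fold gave 6 genes in p53-/- and 10 in p66-/- heart, 16 in p53-/- and 24 in p66-/- thymus, and 9 in p53-/- and 1 in p66-/- lung. Here too the share of all genes at each setting was not counted. With 3-fold there were 0 in p66-/- heart, 1 in p53-/- and 2 in p66-/- thymus. Brighter genes alone gave 0 in p66-/- heart, 2 in p53-/- and 1 in p66-/- thymus, and 0 in p53-/- lung. The mean of all probe sets gave 3 in p53-/- thymus and 0 in p53-/- lung. Each of the 3 scalings gave 2 in p66-/- heart.

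No paired analysis was possible because each tissue and genotype had 1 array, and tissue already served as the block between genotypes. Low signal limits precision, since 19 of 80 genes lay at or above the median signal of all genes.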
